A study of Mus musculus with 20 samples.

Results

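This account follows 10 genes of the oxidative stress and metal response in mouse dorsal root ganglia (DRG), which hold the cell bodies of sensory neurons, after a nerve lesion. They were NRF2 itself (Nfe2l2), its inhibitor Keap1, the NRF2 target genes Hmox1, Gclc, Gclm, Txnrd1 and Srxn1, and the metallothionein genes Mt1, Mt2 and Mt3. They were found by mapping the Ensembl identifiers of the count table to gene symbols. All 10 were among the 78258 genes of the table, and all 10 passed the filter on low counts that left 28564 genes for testing.

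The series measured messenger RNA in 20 libraries from 10 male mice, with 1 library of the ganglia contralateral to the lesion and 1 of the ipsilateral ganglia from each mouse. The conditional knockout (cKO) mice were Ahr fl/fl with Thy1CRE-ERT2/EYFP. Ahr encodes the aryl hydrocarbon receptor, and the Thy1 promoter drives a Cre recombinase that tamoxifen switches on, together with EYFP, so that recombination is limited to cells in which this Thy1 transgene is active. The control mice were Ahr f/f or f/+, which the titles call Wildtype. Both genotypes were given tamoxifen when 17 weeks old, at 100 mg/kg daily for 5 days. The sciatic nerve was transected 4 weeks later, and the L4 to L6 ganglia were collected on day 1 after transection. The treatment field gives spinal cord injury instead; here the protocol was followed. The ganglia of 1 mouse made 1 sample, and the contralateral ganglia came from the same lesioned mice, not from uninjured mice. The 4 groups of 5 libraries are called control contralateral, control ipsilateral, cKO contralateral and cKO ipsilateral.

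NRF2 is a transcription factor that KEAP1 holds in the cytoplasm and hands to the proteasome. Oxidants and electrophiles modify KEAP1, NRF2 accumulates, pairs with a small MAF protein and binds antioxidant response elements in genes for glutathione synthesis, thioredoxin recycling and heme breakdown. BACH1 competes with it at the same elements. Metallothioneins are small cysteine-rich proteins that bind zinc and copper. Mt1 and Mt2 are induced by metals through MTF1 and metal response elements, and also by glucocorticoids and oxidants, whereas Mt3 is expressed mainly in neural tissue and is known for its poor response to metals. In DRG, axon injury is known to change the expression of many genes within a day.

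Libraries held 76.2 to 118.5 M counts (M, mega) in genes, and each member had at least 684 counts in every library. Values per library are CPM, the counts of a gene per 1 M counts of its library, scaled by the TMM factors of edgeR. A gene was called when its p from the edgeR quasi-likelihood test, adjusted by Benjamini-Hochberg over the 28564 genes, was under 0.05. Ahr, the targeted gene, had 21.3, 24.6, 23.8, 27.2 and 24.4 CPM in the control contralateral libraries and 20.4, 21.0, 20.5, 20.4 and 19.5 CPM in the cKO contralateral libraries. These did not overlap, but the difference was not called (-16.03%, adjusted p 0.103). On the ipsilateral side they overlapped (-7.14%, adjusted p 1.00). Ahr itself rose after the lesion, by 41.8% in control (adjusted p 4.70e-06) and 56.8% in cKO mice (adjusted p 1.45e-07), and the sides did not overlap in either. Since the counts take in every exon and every cell type of the ganglion, they do not measure recombination. All 12 sensory neuron markers were detected, with a summed level of 12423 to 15111 CPM. The 7 fibroblast and perineurium markers (Col1a1, Col1a2, Col3a1, Dcn, Lum, Pdgfra and Dpt) summed to 803 to 1359 CPM in the control contralateral libraries. In the cKO contralateral libraries of mice H64, H95 and H100 they summed to 2245, 1985 and 1689 CPM, above every control contralateral library, so the cKO calls of the 10 genes and of the pathway lists are also given without these 3 mice. In bulk ganglia, fewer cells of a type and less RNA per cell cannot be told apart.

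The promoter windows of Srxn1 and Gclm, which in both genotypes had the largest and the smallest log2 fold change of the 10 genes in size, and of the 3 metallothioneins are shown first, because the elements of the pathway can be read in them. RefSeq windows (GRCm38.p6), from 250 bases before to 50 bases after the transcription start, were given for 8 of the 10 genes, not for Hmox1 and Gclc. The motifs searched on both strands were the antioxidant response element core TGACNNNGC, the metal response element core (TGCACNC or TGCGCNC), the AP-1 element TGANTCA and the xenobiotic response element core GCGTG, which the aryl hydrocarbon receptor is known to bind. All windows printed lie on the plus strand and run 5′ to 3′. In the window of Srxn1 (chr2:152105274-152105573) the capitals mark the AP-1 matches. In that of Gclm (chr3:122245307-122245606) they mark the antioxidant core, here on the opposite strand. In those of Mt1 (chr8:94178839-94179138), Mt2 (chr8:94172368-94172667) and Mt3 (chr8:94152357-94152656) they mark the metal response element cores.
Srxn1: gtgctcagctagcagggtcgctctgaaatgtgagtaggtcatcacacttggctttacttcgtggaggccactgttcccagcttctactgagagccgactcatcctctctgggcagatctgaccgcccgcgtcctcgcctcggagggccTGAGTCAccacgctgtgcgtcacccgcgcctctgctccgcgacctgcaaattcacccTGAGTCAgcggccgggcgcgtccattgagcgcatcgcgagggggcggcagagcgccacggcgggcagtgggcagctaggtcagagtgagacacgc
Gclm: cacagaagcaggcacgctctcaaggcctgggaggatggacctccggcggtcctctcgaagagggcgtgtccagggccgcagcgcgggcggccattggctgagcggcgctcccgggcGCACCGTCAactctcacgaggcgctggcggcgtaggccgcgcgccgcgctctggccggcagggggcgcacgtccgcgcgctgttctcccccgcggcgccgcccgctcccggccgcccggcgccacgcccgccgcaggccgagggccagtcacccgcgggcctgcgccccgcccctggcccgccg
Mt1: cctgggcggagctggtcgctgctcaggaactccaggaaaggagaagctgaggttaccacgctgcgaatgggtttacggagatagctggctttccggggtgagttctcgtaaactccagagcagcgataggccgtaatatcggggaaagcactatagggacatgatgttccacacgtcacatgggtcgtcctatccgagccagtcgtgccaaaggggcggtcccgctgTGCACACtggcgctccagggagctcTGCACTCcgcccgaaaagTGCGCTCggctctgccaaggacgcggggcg
Mt2: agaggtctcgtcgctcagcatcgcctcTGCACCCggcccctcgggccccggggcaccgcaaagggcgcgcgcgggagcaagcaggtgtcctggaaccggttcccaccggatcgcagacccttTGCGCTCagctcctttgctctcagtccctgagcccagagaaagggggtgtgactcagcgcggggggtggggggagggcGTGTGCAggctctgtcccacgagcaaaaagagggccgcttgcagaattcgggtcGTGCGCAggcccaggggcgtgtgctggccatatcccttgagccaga
Mt3: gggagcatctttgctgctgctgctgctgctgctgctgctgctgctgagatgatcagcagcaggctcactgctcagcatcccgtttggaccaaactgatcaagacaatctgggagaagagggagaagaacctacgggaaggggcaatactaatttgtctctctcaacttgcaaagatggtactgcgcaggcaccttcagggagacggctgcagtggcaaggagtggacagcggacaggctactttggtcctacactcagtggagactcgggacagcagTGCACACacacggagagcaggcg

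The Srxn1 window held the AP-1 letters at 2 places, starting 102 and 45 bases before the first transcribed base. Of 32851 RefSeq windows of this length, 7.81% held at least 1 AP-1 match and 0.460% at least 2. The window also held an antioxidant core, starting 28 bases after the start. The Mt2 window held 4 metal cores, the last of them starting 4 bases after the start. The Mt1 window held 3, of which 2 started 2 and 20 bases after the start. The Mt3 window held 1, starting 27 bases after the start. At least 1 such core was found in 25.7% of all windows, at least 2 in 7.11% and at least 4 in 0.517%. In Mt2 an antioxidant core and an AP-1 match overlapped 79 bases before the start, and in Gclm the antioxidant core overlapped a metal core. The 8 genes had 10 windows, since Txnrd1 has 3. The antioxidant core was found in 5 of the 10 (those of Nfe2l2, Gclm, Srxn1 and Mt2 and 1 of Txnrd1), against 12.4% of all windows. The metal core was found in 5 of 10, the AP-1 element in 2 (Srxn1 and Mt2) and the xenobiotic core in 8, against 32.4% of all windows for the last. These are letter matches, not binding sites. The 3 metallothionein genes neighbour each other on chromosome 8 in the order Mt3, Mt2, Mt1, with window starts 20011 and 6471 bases apart.

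Within 1 day of the lesion, most of these genes were at a different level in the ipsilateral than in the contralateral ganglia. In control mice 5 of the 10 were higher on the ipsilateral side (Nfe2l2, Txnrd1, Srxn1, Mt1 and Mt2) and 2 were lower (Keap1 and Gclc), while Hmox1, Gclm and Mt3 were not called. Of all tested genes, 29.9% were called in this comparison, 13.8% higher and 16.0% lower. In cKO mice 9 were called, with 6 higher (the same 5 and Hmox1) and 3 lower (Keap1, Gclc and Mt3), against 31.3% of all tested genes, 16.2% higher and 15.1% lower. The median log2 fold change of the 10 genes was 0.23 in control and 0.30 in cKO mice, beside -0.00472 and -0.03 over all tested genes. Without mice H64, H95 and H100, 6 genes were called in cKO mice, with Keap1, Hmox1 and Mt3 no longer called, and fewer genes of the whole table were called too (4133 in place of 8939).

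**Figure D1:**
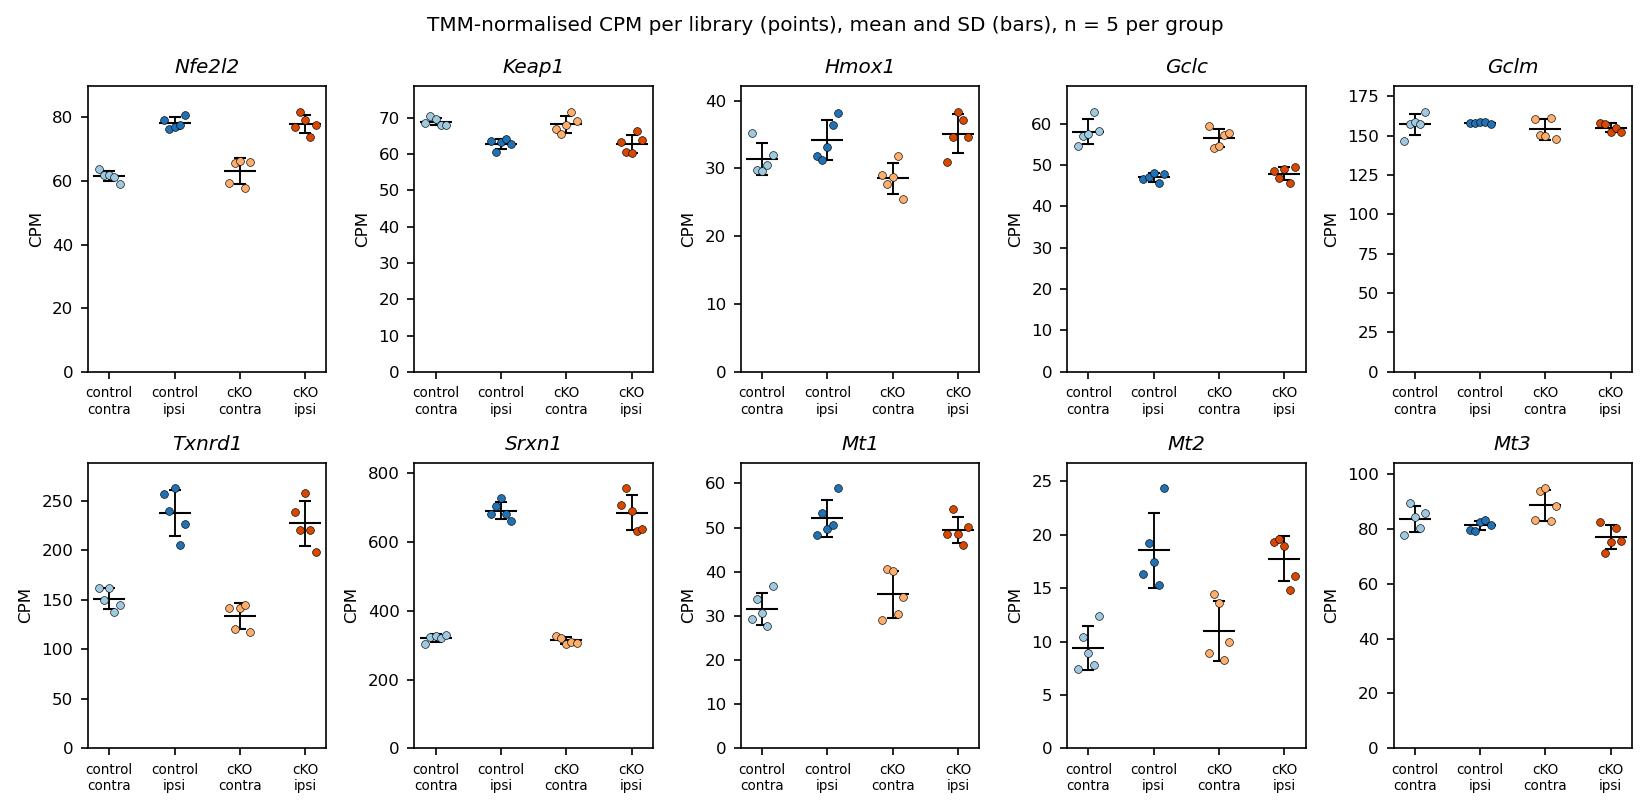
TMM-normalised CPM of the 10 genes in each library (points), with the mean and SD of each group of 5 (bars), on linear axes that start at 0; pale and dark points are the contralateral and ipsilateral sides of control (blue) and cKO (orange) mice. Mean Srxn1 rose from 320.3 to 691 CPM in control mice and likewise in cKO mice, while Gclm stayed between 147 and 165 CPM in all 20 libraries.

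**Figure D2:**
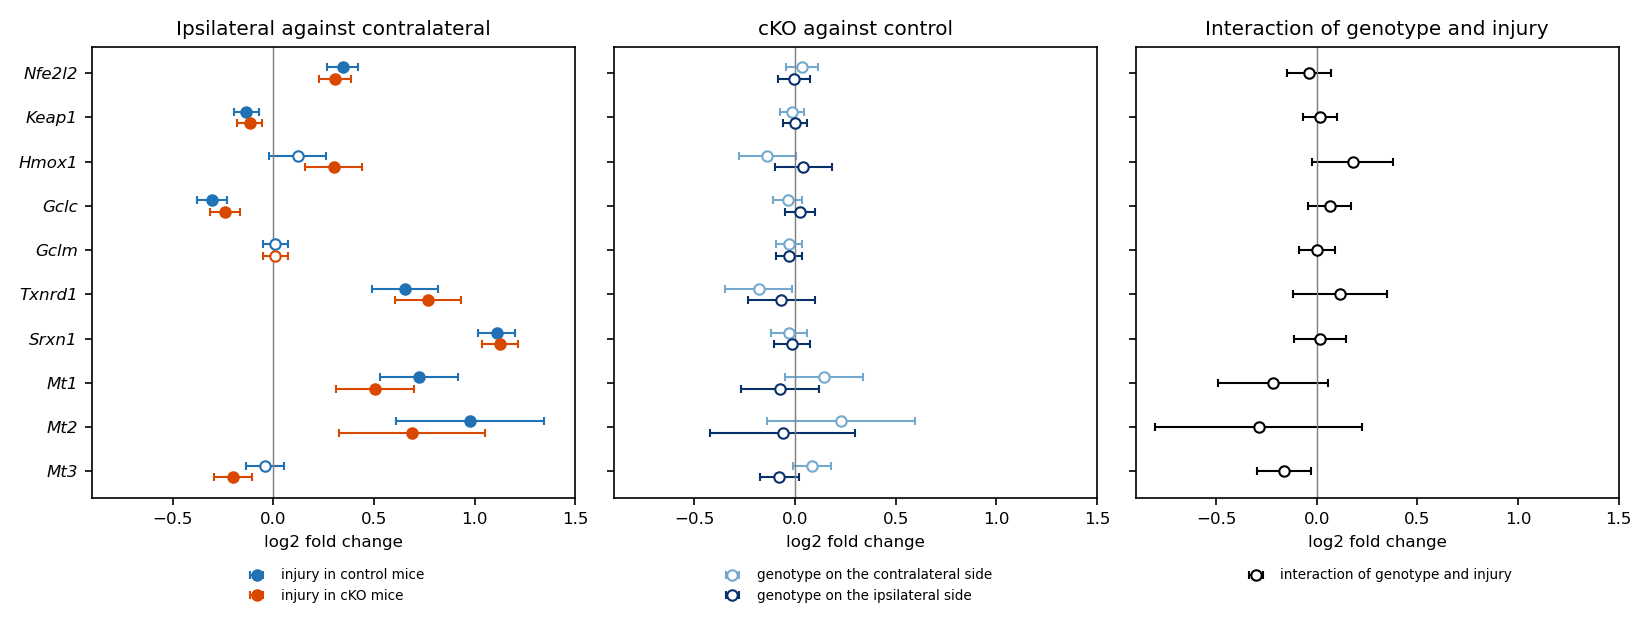
Log2 fold changes with 95% confidence intervals from the edgeR fit, for the lesion in each genotype, for genotype on each side and for the interaction; filled points were called at an adjusted p under 0.05. The lesion effects range from -0.30 for Gclc to 1.13 for Srxn1, and no genotype effect or interaction is filled.

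Values below follow the mice in the order H62, H63, H65, H96 and H97 for control and H61, H64, H95, H99 and H100 for cKO. Nfe2l2 (ENSMUSG00000015839.7), the gene of NRF2, had 63.6, 61.8, 61.9, 61.3 and 59.1 CPM in the control contralateral and 79.3, 76.2, 76.9, 77.5 and 80.8 CPM in the control ipsilateral libraries. All 5 ipsilateral libraries were above all 5 contralateral ones, a log2 fold change of 0.34 (SE 0.0377, adjusted p 4.64e-07), or 26.9%. In cKO mice the levels were 59.4, 65.8, 66.1, 57.8 and 65.9 CPM on the contralateral and 76.9, 81.7, 79.2, 73.96 and 77.5 CPM on the ipsilateral side. Here too the sides did not overlap, with a log2 fold change of 0.31 (SE 0.0377, adjusted p 2.03e-06). Groups that did not overlap made up 23.6% of all tested genes in control and 20.2% in cKO mice, against 7 of the 10 genes in each genotype.

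Keap1 (ENSMUSG00000003308.16), the adaptor that presents NRF2 for ubiquitination, went the other way, by a small amount. In control mice it fell from 68.7, 70.4, 69.8, 67.99 and 68.1 CPM to 63.7, 60.5, 63.3, 64.1 and 62.7 CPM, and every ipsilateral library was below every contralateral one (log2 fold change -0.13, SE 0.0292, adjusted p 0.00128). In cKO mice it had 66.9, 65.4, 67.97, 71.6 and 69.1 CPM contralaterally and 63.2, 60.6, 60.3, 66.2 and 63.9 CPM ipsilaterally. There the sides overlapped through mouse H99, although each of the 5 mice was lower on the lesioned side, and the difference was called (-0.12, SE 0.0292, adjusted p 0.00364). That call was lost with no filter on low counts (adjusted p 0.0540), in a fit of the cKO libraries alone (0.0722) and without mice H64, H95 and H100 (0.258).

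Srxn1 (ENSMUSG00000032802.9), sulfiredoxin, which reactivates overoxidised peroxiredoxins, changed most of the 10. In control mice it had 302, 322, 326, 319.8 and 331 CPM on the contralateral side and 680.3, 705, 727, 682 and 662 CPM on the ipsilateral side. Every ipsilateral library was far above every contralateral one, and the fold was 2.16 (log2 1.11, SE 0.0436, adjusted p 9.02e-14). In cKO mice it had 327, 322, 304, 309.7 and 306 CPM and 708, 756, 689.96, 633 and 638 CPM, a fold of 2.18 (log2 1.13, adjusted p 6.87e-14). The per-mouse log2 ratio of the sides lay between 1.00 and 1.23 in all 10 mice. Its window held letter matches to each of the motifs searched, and their part in this response was not tested.

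Txnrd1 (ENSMUSG00000020250.12), the cytosolic thioredoxin reductase, which uses NADPH to recycle thioredoxin, rose as well. It had 162, 149, 162, 138 and 145 CPM in control contralateral and 257, 239, 262, 205 and 226 CPM in control ipsilateral libraries. The cKO values were 141, 121, 142, 145 and 118 CPM and 239, 220.3, 258, 219.95 and 198 CPM. The sides did not overlap in either genotype. The log2 fold change was 0.65 (SE 0.0791, adjusted p 2.47e-06) in control and 0.77 (SE 0.0792, adjusted p 2.84e-07) in cKO mice. Within a group the libraries of this gene spread more (coefficient of variation 7.005% to 9.87%) than those of Srxn1 (3.29% to 7.46%).

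The subunits of glutamate-cysteine ligase, the rate-limiting enzyme of glutathione synthesis, parted. Gclc (ENSMUSG00000032350.10), the catalytic subunit, had 54.7, 57.1, 57.5, 62.8 and 58.3 CPM contralaterally and 46.5, 47.2, 48.1, 45.5 and 47.7 CPM ipsilaterally in control mice, with no overlap. Its log2 fold change was -0.30 (SE 0.0357, adjusted p 1.18e-06), or -19.02%. In cKO mice it had 59.3, 54.1, 54.6, 57.1 and 57.8 CPM and 48.5, 46.7, 48.97, 45.7 and 49.6 CPM, again without overlap (-0.24, SE 0.0357, adjusted p 2.19e-05). Each of the 10 mice had less Gclc on the lesioned side.

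Gclm (ENSMUSG00000028124.17), the modifier subunit, did not pass the test in either genotype. Its control values were 147, 157, 159, 157 and 165 CPM and, on the ipsilateral side, 158, 158, 159, 159 and 157 CPM, a spread of only 0.588 CPM (SD, n = 5) on the latter. In cKO mice it had 161, 150.3, 149.6, 161 and 148 CPM and 158, 157, 152, 155 and 152 CPM. The change was 0.663% (95% interval -3.64% to 5.16%, adjusted p 0.858) in control and 0.708% (-3.60% to 5.20%, adjusted p 0.844) in cKO mice. The log2 ratio of Gclm to Gclc was 1.44 ± 0.0678 contralaterally and 1.75 ± 0.0332 ipsilaterally in control libraries (SD, n = 5), and 1.44 ± 0.0555 and 1.69 ± 0.0647 in cKO libraries. The lowest ipsilateral ratio of all, 1.62, was above the highest contralateral one, 1.5005.

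Hmox1 (ENSMUSG00000005413.9), heme oxygenase 1, which breaks heme down to biliverdin, iron and carbon monoxide, showed a weaker and more scattered pattern. In control mice it had 35.3, 29.8, 29.6, 30.5 and 31.99 CPM contralaterally and 31.9, 31.3, 33.1, 36.3 and 38.1 CPM ipsilaterally; 4 of 5 mice were higher on the lesioned side, H62 was lower, and the difference was not called (log2 0.12, SE 0.0682, adjusted p 0.205). In cKO mice it had 28.96, 27.6, 28.8, 31.9 and 25.6 CPM and 31.01, 34.6, 38.3, 37.2 and 34.6 CPM, was higher in 5 of 5 mice and was called although the sides overlapped (0.30, SE 0.0683, adjusted p 0.00184). The difference between these responses was 0.18 with an adjusted p of 0.547, so the genotypes were not shown to differ. Without mice H64, H95 and H100 the cKO call was lost (log2 0.18, adjusted p 0.359). Macrophages are a known site of Hmox1 expression. Their 9 markers summed to 88.4 to 165 CPM in control contralateral, 103 to 197 in control ipsilateral, 89.0 to 225 in cKO contralateral and 132 to 224 CPM in cKO ipsilateral libraries. All 9 had positive log2 fold changes after the lesion in control mice (median 0.50) and 7 of 9 in cKO mice (median 0.20). Of these 1 was called in control mice (Mrc1, higher; 11.1%, beside 29.9% of all tested genes) and 0 in cKO mice, beside 31.3%. None was at 0 in a group, and the part of macrophages in the Hmox1 values was not tested.

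Both inducible metallothioneins rose. Mt1 (ENSMUSG00000031765.9) had 29.3, 33.8, 30.6, 27.7 and 36.7 CPM in control contralateral and 48.3, 53.4, 49.7, 50.6 and 58.9 CPM in control ipsilateral libraries. In cKO mice its values were 29.03, 40.6, 40.2, 30.4 and 34.2 CPM and 48.7, 54.1, 48.5, 46.2 and 50.3 CPM. No contralateral library of either genotype reached the lowest ipsilateral one. The log2 fold change was 0.72 (SE 0.0925, adjusted p 5.26e-06) in control and 0.51 (SE 0.0922, adjusted p 2.64e-04) in cKO mice.

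Mt2 (ENSMUSG00000031762.8) had 7.46, 10.4, 8.94, 7.84 and 12.4 CPM in control contralateral and 16.3, 19.2, 17.5, 15.3 and 24.3 CPM in control ipsilateral libraries. Its cKO values were 8.89, 14.5, 13.6, 8.25 and 9.92 CPM and 19.3, 19.6, 18.9, 14.9 and 16.1 CPM. The sides did not overlap in either genotype, by the narrowest margin in cKO mice, where H64 had 14.5 CPM on the contralateral side and H99 14.9 CPM on the ipsilateral side. The log2 fold change was 0.98 (SE 0.174, adjusted p 2.64e-04) in control and 0.69 (SE 0.173, adjusted p 0.00492) in cKO mice. Mt1 and Mt2 have similar sequences, and how reads shared between them were counted is not given in the sources used here. The log2 ratio of Mt2 to Mt1 was -1.77 ± 0.153 in control contralateral and -1.51 ± 0.162 in control ipsilateral libraries (SD, n = 5), and -1.69 ± 0.158 and -1.49 ± 0.146 in cKO libraries. The ranges overlapped between the sides, but the ratio was higher on the lesioned side in 10 of 10 mice, by 0.0221 to 0.41.

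Markers of other cell types were read beside these genes. The 7 endothelial markers all had positive log2 fold changes in control mice (median 0.38), and 2 of them were called higher (Flt1 and Emcn, 28.6%). Of all tested genes, 13.8% were called higher and 29.9% in either direction. The endothelial markers summed to 97.02 to 138 CPM contralaterally and 115 to 167 CPM ipsilaterally, ranges that overlapped. Their sum was higher on the lesioned side in 5 of 5 mice. The 7 markers of neutrophils and monocytes (median 0.57) and the 7 of fibroblasts and perineurium (median 0.34) were likewise all positive, with 0 called in each. In cKO mice 4 of 7 endothelial, 1 of 7 neutrophil and monocyte and 1 of 7 fibroblast markers were positive (medians 0.08, -0.12 and -0.64). In these mice 1 fibroblast marker was called, lower (Dpt, log2 -1.22). Without mice H64, H95 and H100 its call was lost (log2 -1.28, adjusted p 0.243). No marker of these 3 lists was at 0 in a group. After the group means were subtracted, Mt1 had an r of 0.57 with the summed endothelial markers and 0.54 with those of fibroblasts over the 20 libraries, and Mt2 had 0.39 and 0.28. The part of these cells in the Mt1 and Mt2 values was not tested.

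Mt3 (ENSMUSG00000031760.10), the neural metallothionein, did not follow them. In control mice it had 77.6, 89.5, 84.2, 80.3 and 85.9 CPM contralaterally and 79.7, 79.2, 82.6, 83.2 and 81.4 CPM ipsilaterally, which overlapped (log2 -0.04, SE 0.0455, adjusted p 0.576). In cKO mice it fell from 83.3, 93.7, 94.7, 82.7 and 88.2 CPM to 82.4, 71.4, 75.2, 80.2 and 75.6 CPM, without overlap (-0.20, SE 0.0455, adjusted p 0.00168). The per-mouse log2 ratios in cKO mice were -0.02, -0.39, -0.33, -0.04 and -0.22. The lowest 3 belonged to H64, H95 and H100, the mice whose contralateral libraries were high in fibroblast markers, and the fit without these mice gave -0.02 (adjusted p 0.915). The same 3 mice had the 3 smallest responses of Mt1 and Mt2 among cKO mice, and without them the cKO log2 fold changes of Mt1 and Mt2 were 0.69 and 1.01 (adjusted p 9.72e-04 and 0.0204). The part of the fibroblast content in these values was not tested.

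The 8 satellite glia markers, whose cells wrap the neuron bodies, summed to 2188 to 2391 CPM in control contralateral and 2368 to 2652 CPM in control ipsilateral libraries, and to 2191 to 2514 and 2279 to 2563 CPM in cKO libraries. Of these, 2 were called higher in control mice (Glul and Kcnj10, 25%) and 3 in cKO mice (with Ptprz1, 37.5%), beside 13.8% and 16.2% of all tested genes. Of 12 sensory neuron markers, 3 were called lower in each genotype (25%), beside 16.0% and 15.1%. In either direction 29.9% and 31.3% of all tested genes were called. Without mice H64, H95 and H100, Ptprz1 was lost. Of the sensory neuron calls in cKO mice, Rbfox3 was then kept. Snap25 and Calca were lost (log2 -0.15 and -0.00477, adjusted p 0.168 and 0.980). Sums of both lists overlapped between the sides. The satellite glia sum was higher on the lesioned side in 5 of 5 control and 2 of 5 cKO mice, and the sensory neuron sum in 2 of 5 and 0 of 5. The part of these cells in the values of the 10 genes was not tested.

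**Figure D3:**
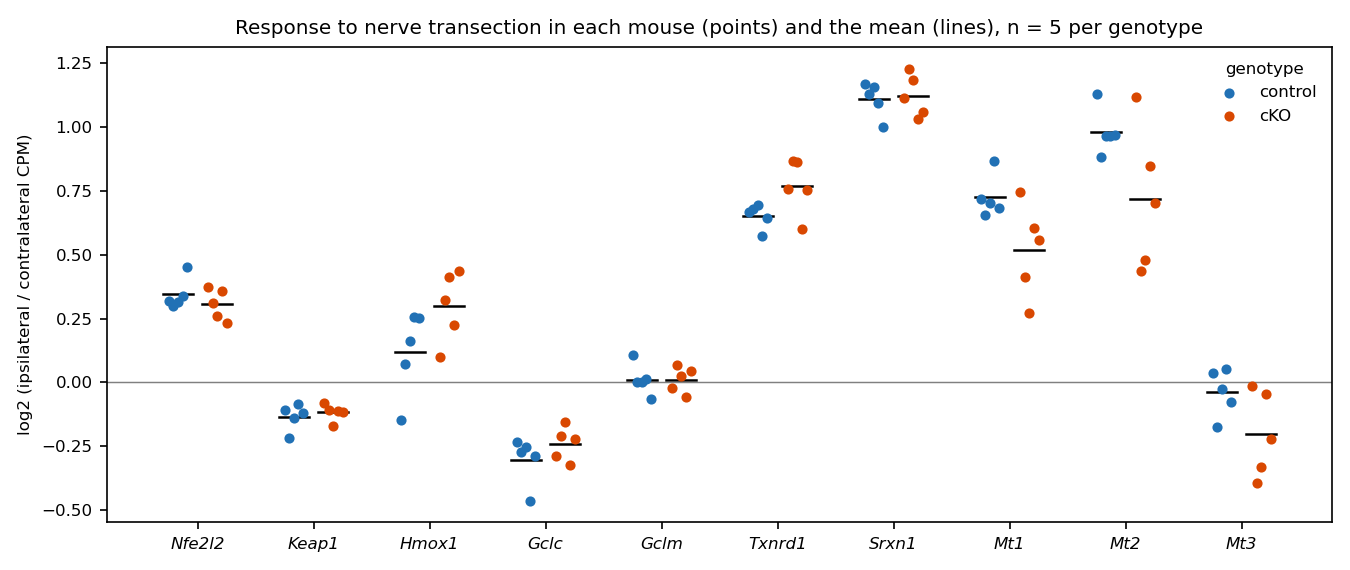
Log2 ratio of ipsilateral to contralateral CPM for each gene in each mouse (points), with the mean of each genotype (lines), n = 5 per genotype. Srxn1 lies between 1.00 and 1.23 in all mice, whereas Mt2 spreads over 0.88 to 1.13 (control) and 0.44 to 1.12 (cKO).

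The comparison of the genotypes asks whether loss of Ahr from Thy1-expressing cells moved these genes, in the contralateral or the lesioned ganglia of the lesioned mice. None of the 10 was called between cKO and control on the contralateral side, where 0.0735% of all tested genes were called, and none on the ipsilateral side, where 0.00700% were. At an unadjusted p under 0.05 there was 1 of 10 on the contralateral side, against 17.5% of all tested genes, and 0 of 10 on the ipsilateral side, against 2.36%. The contralateral count moved with single mice, to 3 without H61 (Txnrd1, Mt1 and Mt3) or H99 (Hmox1, Txnrd1 and Mt3), to 2 without H97 (Mt1 and Mt2) and to 0 without H62, H65, H64 or H100. The ipsilateral count was 1 without H61 (Mt3). DESeq2 called 0 of 10 on either side as well. The groups of all 10 overlapped on both sides, while 1.52% of tested genes did not overlap contralaterally and 0.599% ipsilaterally. The 1 contralateral gene at an unadjusted p under 0.05 was Txnrd1, with contralateral levels of 151 ± 10.6 (control) and 133 ± 13.01 CPM (cKO) (SD, n = 5), a difference of -11.8% (95% interval -21.4% to -1.12%, unadjusted p 0.0330, adjusted p 0.244). H64 and H100 had its lowest contralateral values, and without H64, H95 and H100 the log2 difference went from -0.18 to -0.0784 (adjusted p 1.00).

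A p that misses the threshold does not show that the genotypes are alike, and the 95% intervals say how large a difference would still fit. For Srxn1 the cKO level differed from control by -2.01% contralaterally (interval -7.93% to 4.29%) and by -0.918% ipsilaterally (-6.89% to 5.44%). Nfe2l2 differed by 2.34% (-3.08% to 8.08%) and -0.349% (-5.62% to 5.21%). For Keap1, Gclc and Gclm the interval stayed within 10% of control on both sides, the widest bound being -7.46% for Gclc on the contralateral side. Contralateral Hmox1 was at 31.4 ± 2.35 (control) and 28.6 ± 2.29 CPM (cKO, SD, n = 5; -9.07%, interval -17.6% to 0.359%). On the ipsilateral side Hmox1 differed by 2.90% (-6.74% to 13.5%) and Txnrd1 by -4.60% (-14.9% to 6.93%).

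The intervals of Mt1 and Mt2 were wider than those of the other 8 genes on both sides. Contralateral Mt2 was at 9.42 ± 2.04 (control) and 11.02 ± 2.82 CPM (cKO, SD, n = 5), a difference of 17.1% with an interval of -9.18% to 50.9%. Mt1 differed by 10.3% (-3.51% to 26.2%) and Mt3 by 6.005% (-0.740% to 13.2%) on that side. Mice H64 and H95 had the highest contralateral values of the cKO group for Mt1, Mt2 and Mt3. Without H64, H95 and H100 the log2 differences of these 3 genes turned from 0.14, 0.23 and 0.08 to -0.09, -0.13 and -0.00865, with adjusted p of 1.00 each. On the ipsilateral side Mt1, Mt2 and Mt3 differed by -5.01%, -4.19% and -5.25%, with intervals that all included 0.

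Whether the lesion response itself depended on genotype was tested as the interaction. It was called for 0 of the 10 genes and for 0% of all tested genes, and an unadjusted p under 0.05 was found for 1 of 10, against 9.80% of all. That gene was Mt3, whose response was lower in cKO by -0.16 on the log2 scale (SE 0.0644, unadjusted p 0.0204, adjusted p 0.485). With the mouse as a replicate block the count at an unadjusted p under 0.05 was 4 of 10, against 11.4% of all tested genes: Txnrd1, Mt1, Mt2 and Mt3, with log2 interactions of 0.12, -0.21, -0.27 and -0.16 and adjusted p of 0.429, 0.376, 0.415 and 0.436. Without the block the count was 2 without H61, and 0 without H96, H64 or H95. Without H64, H95 and H100 together it was 0 as well. DESeq2 called 0 of 10 here too. It gave an adjusted p to 8074 genes and called 11 of them, and a gene without one counted as not called. The interaction of Srxn1 was 0.02 (SE 0.0609), an interval of -7.41% to 10.4% for the ratio of the folds. It was -0.04 for Nfe2l2, 0.02 for Keap1, 0.06 for Gclc, 6.41e-04 for Gclm, 0.11 for Txnrd1 and -0.22 for Mt1, with adjusted p from 0.579 to 0.998. For Mt2 it was -0.29 (SE 0.245), with an interval of -42.7% to 16.9%.

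Levels can be compared between genes only per length, and CPM was divided by the merged exon length of GENCODE M21 for this. The annotation behind the counts is not given, so these need not be the exons that were counted. In control contralateral libraries Srxn1 stood highest at 114 ± 3.85 CPM per kb (SD, n = 5), followed by Mt3 at 78.3 ± 4.37. Mt1 (25.4 ± 2.91) and Gclm (24.97 ± 1.04) did not differ beyond their spread, and Txnrd1 (21.3 ± 1.49) and Hmox1 (17.9 ± 1.34) came next. Nfe2l2 (16.2 ± 0.431), Mt2 (16.03 ± 3.47), Gclc (15.4 ± 0.788) and Keap1 (14.7 ± 0.226) followed, with each step between neighbours smaller than the larger SD. On the control ipsilateral side Srxn1 reached 245 ± 8.98 and Mt3 76.2 ± 1.66, followed by Mt1 (41.9 ± 3.36). Txnrd1 (33.6 ± 3.26) and Mt2 (31.5 ± 6.04), below Gclm contralaterally, stood above it here (25.1 ± 0.0934). The lowest was Gclc at 12.5 ± 0.275. The cKO libraries gave Srxn1, Mt3, Mt1, Gclm and Txnrd1 as the first 5 contralaterally, and the same order as control on the ipsilateral side. Exons used in few transcripts lengthen the merged length, so the level of a gene with many isoforms, such as Txnrd1, is understated.

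Around the 10 genes, 87 other genes of the pathway were listed in 7 groups, of which 84 passed the filter. In control mice 29 (34.5%) were called higher and 10 (11.9%) lower after the lesion, beside 13.8% and 16.0% of all tested genes. In cKO mice 28 (33.3%) were higher and 17 (20.2%) lower, beside 16.2% and 15.1%. Without mice H64, H95 and H100 the cKO calls fell from 45 to 26 of 85 tested (30.6%, 21 of them higher), beside 13.9% of all tested genes. By group, the calls kept of those made with all 5 cKO mice were 4 of 9 regulators, 4 of 8 glutathione genes, 5 of 8 thioredoxin and peroxiredoxin genes, 5 of 9 genes of NADPH supply and detoxification, 1 of 4 heme and iron genes, 1 of 1 gene of superoxide and peroxide removal and 5 of 6 metal genes. Of the genes of these 7 groups named below as called in cKO mice, Nqo1, Hmox2 and Fth1 were lost then (log2 -0.11, -0.06 and -0.05, adjusted p 0.429, 0.405 and 0.778), and the others were kept. With all mice, the median log2 fold change of the 84 was 0.04 in control and 0.00812 in cKO mice. Between genotypes, on either side, and in the interaction, 0 of 84 were called by edgeR. On the contralateral side this rested on single mice, with 21 of 84 called without H99 (25%, beside 11.5% of all tested genes) and 4 without H61 (4.76%, beside 0.605%). At an unadjusted p under 0.05 there were 29 on the contralateral side (34.5%, beside 17.5%), 1 on the ipsilateral side (1.19%, beside 2.36%) and 22 in the interaction (26.2%, beside 9.80%). Without mice H64, H95 and H100 these counts were 0, 4 and 3 of 85. DESeq2 called 12 on the contralateral side (14.3%, beside 4.70%, all 12 higher) and 0 in the other 2 comparisons. In the interaction it gave only 63 of the 84 an adjusted p. The 9 macrophage, 7 neutrophil and monocyte, 7 fibroblast and 7 endothelial markers were all positive in cKO against control contralaterally. Their medians were 0.26, 0.70, 0.85 and 0.12, with 0 called. In the interaction 0 of them were positive. Of 12 sensory neuron, 8 satellite glia and 8 Schwann cell markers, 4 of each were positive contralaterally. The part of these cells was not tested.

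The share called, in either direction, is given for each group below, to be read beside 29.9% of all tested genes in control and 31.3% in cKO mice. Among 14 regulators of NRF2, 6 were higher and 2 lower in control mice (57.1%), and 8 and 1 in cKO mice (64.3%). Bach1, the repressor that competes for antioxidant elements, rose from 25.1 ± 1.07 to 46.7 ± 1.96 CPM in control libraries (SD, n = 5; log2 0.90, adjusted p 4.14e-13). The cKO change was from 25.5 ± 0.978 to 48.4 ± 1.998 CPM in cKO libraries (log2 0.92, adjusted p 1.95e-13). The small MAF partners Mafk (log2 0.72 in control and 0.78 in cKO mice) and Maff (0.38 and 0.58) rose in both genotypes.

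Of 18 genes of glutathione synthesis and use, 5 were higher and 1 lower in control mice (33.3%), and 4 and 4 in cKO mice (44.4%). Chac1, which degrades glutathione, had the largest log2 fold change of the 84 in both genotypes and rose from 7.23 ± 0.229 to 25.7 ± 1.74 CPM in control (log2 1.83, adjusted p 1.64e-12) and by 1.68 in cKO mice (adjusted p 4.68e-12). Ggt5, a gamma-glutamyl transferase (0.73 and 0.84), and Slc3a2, the heavy chain of the cystine transporter (0.40 and 0.43), rose as well.

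In the thioredoxin and peroxiredoxin group, 4 of 14 genes were higher and 2 lower in control mice (42.9%), and 3 and 5 in cKO mice (57.1%). Sesn2, a stress-induced sestrin, rose from 6.31 ± 0.356 to 15.8 ± 1.71 CPM in control libraries (log2 1.32, adjusted p 1.50e-10; 1.04 in cKO). Its relative Sesn1 fell by 0.34 in control and by 0.40 in cKO mice on the log2 scale, and Txnrd3 rose by 0.39 and 0.46.

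For NADPH supply and detoxification, 4 of 14 were higher and 2 lower in control mice (42.9%), and 6 and 3 in cKO mice (64.3%). Akr1b8, an aldo-keto reductase, had log2 fold changes of 0.97 and 0.91, Taldo1 of the pentose phosphate pathway 0.38 and 0.37, and Ephx1, an epoxide hydrolase, -0.43 and -0.50. All 3 were called in both genotypes. Nqo1, a quinone reductase known as a target of both NRF2 and the aryl hydrocarbon receptor, is named after its values were seen. It had 14.6 ± 0.735 CPM contralaterally and 13.6 ± 0.851 CPM ipsilaterally in control mice (log2 -0.10, adjusted p 0.177), and fell in cKO mice (log2 -0.17, adjusted p 0.0237).

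The 9 tested genes of heme and iron held 2 higher and 2 lower in control mice and 0 and 4 in cKO mice (44.4% in each). Fech, ferrochelatase, was lower in both (-0.19 and -0.23), as was Hmox2, the constitutive heme oxygenase (-0.12 and -0.08). Ftl1, the ferritin light chain, was higher in control mice (0.18), and Fth1, the heavy chain, was lower in cKO mice (-0.14), with neither interaction called. The 5 erythroid markers (the hemoglobin genes Hba-a1, Hba-a2, Hbb-bs and Hbb-bt, and Alas2, which starts heme synthesis in red cell precursors) all had negative log2 fold changes in cKO mice (median -0.41), against 4 of 5 positive in control mice (median 0.03), with 0 called in either. All 5 were also positive in cKO against control on the contralateral side (median 0.47, 0 called). They summed to 272 to 833 CPM in cKO contralateral and 252 to 616 CPM in cKO ipsilateral libraries, none was at 0 in a group, and their part in the heme values was not tested. Among 6 genes of superoxide and peroxide removal 33.3% were called in control and 16.7% in cKO mice: Sod3 (0.30) and Msrb1 (0.19) were higher in control mice and Msrb1 (0.15) in cKO mice.

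In the group of metal response and zinc transport, 6 of 9 tested genes were higher and 1 lower in control mice (77.8%), and 6 and 0 in cKO mice (66.7%). Mtf1, the metal-sensing transcription factor of Mt1 and Mt2, rose by 0.19 and 0.23, and the zinc exporter Slc30a1, itself a known MTF1 target, by 0.46 and 0.40. Mtf1 is named for its role, after its values were seen. The zinc transporters Slc30a4 (0.45 and 0.30), Slc39a6 (0.36 and 0.56) and Slc39a14 (0.41 and 0.46) rose in both genotypes, and Slc39a1 (0.46) in control mice. The median of this group was 0.36 in control and 0.23 in cKO mice.

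**Figure D4:**
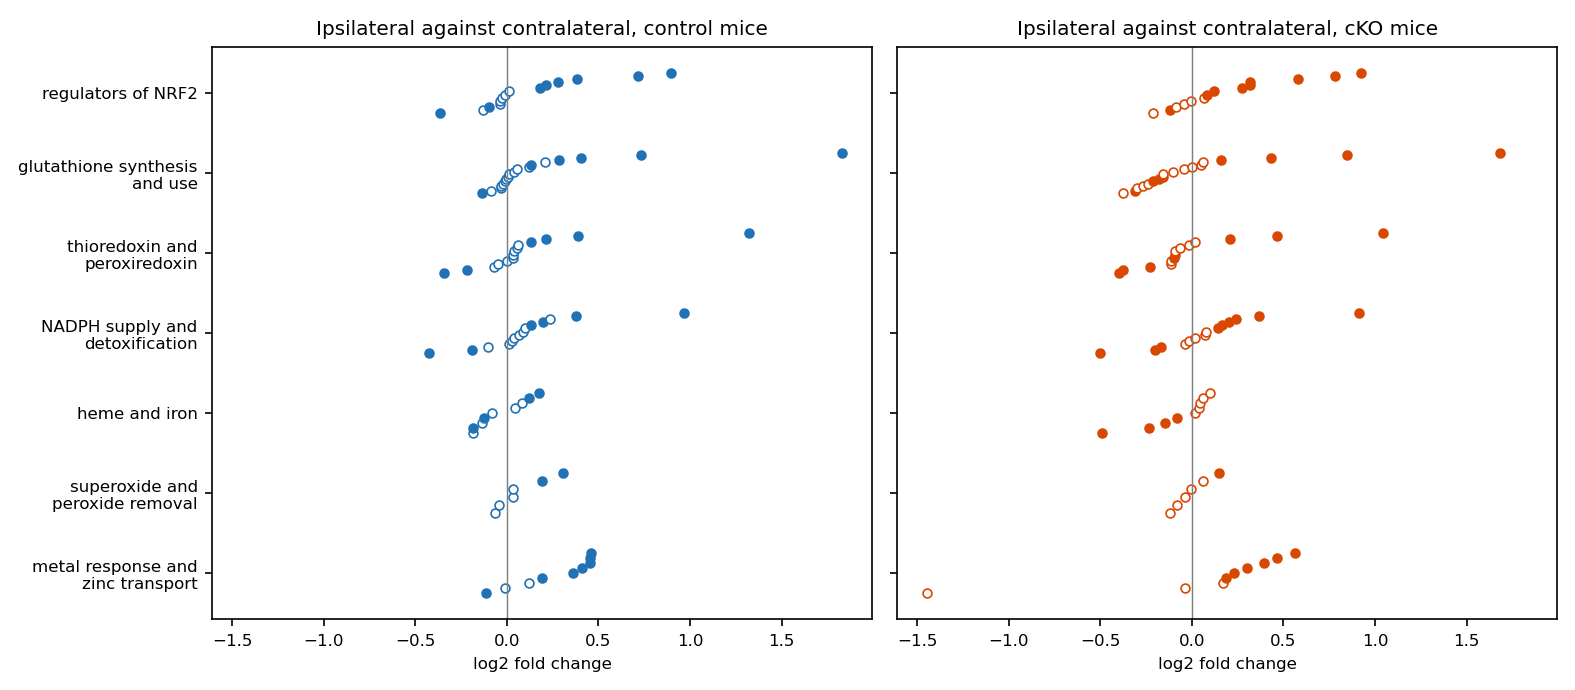
Log2 fold change, ipsilateral against contralateral, of each of the 84 tested pathway genes in 7 lists, in control and cKO mice; each point is 1 gene and filled points were called at an adjusted p under 0.05. The point farthest to the right in both genotypes is Chac1 (1.83 and 1.68), and 29 points in control and 28 in cKO mice are called higher.

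Within groups, the mice also differed in these genes, which was described after subtracting the 4 group means from the log2 CPM of the 20 libraries. The libraries share scaling, and 2 come from each mouse. Mt1 and Mt2 varied together (Pearson r 0.92, n = 20), more closely than any other of the 45 pairs, and Nfe2l2 varied against Gclm (r -0.71). Gclm was low where the summed fibroblast markers were high (r -0.78) and Nfe2l2 was high there (r 0.68). With the summed erythroid markers the r was -0.74 for Gclm and 0.51 for Nfe2l2. Nfe2l2 was also low where the sensory neuron markers were high (r -0.69). With the macrophage markers the r was 0.62 for Nfe2l2, -0.60 for Txnrd1, -0.59 for Gclm and -0.22 for Hmox1, and with those of neutrophils and monocytes it was 0.62 for Nfe2l2, -0.54 for Gclm and -0.51 for Keap1. The part of these cells was not tested.

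The genes most like each member by this measure were sought among 11902 named genes that averaged 5 CPM or more. For Srxn1 they were Uap1 (r 0.90), Azin1 (0.86) and Mapkbp1 (0.86), and over all 20 libraries, group differences included, the r of Uap1 with Srxn1 was 0.998. For Txnrd1 they were Zfp597 (0.83), Kctd21 (0.81) and Ubxn2b (0.80). For Nfe2l2 they were Trim47 (0.91), Il17ra (0.91) and Triobp (0.89), and for Keap1 Tmx2 (0.84), Nudt18 (0.82) and Tmem59l (0.82). Gclm was matched by Ppm1h (0.91), Cptp (0.90) and Slco5a1 (0.89), and Gclc by Ttyh3 (0.81), E2f3 (0.81) and Krit1 (0.80). Mt1 was nearest to Sult1a1 (0.82), Tns2 (0.81) and Sorbs3 (0.81), and Mt2 to Fam107a (0.82), Mical2 (0.82) and Syne3 (0.78). Mt3 was nearest to Mrps18a (0.91), Ndufv2 (0.88) and Sdhc (0.88). Hmox1 had the loosest matches, with Samd5 (0.74), Safb2 (0.70) and Wdr12 (0.67). Each of these is among the 3 highest of the 11902 correlations of its member over 20 libraries and is given as a description.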

How the data were processed

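The authors deposited exonic read counts for every gene as whole numbers, unnormalised, in a table with 20 library columns, and a table of FPKM that was not used here. Stranded mRNA libraries were read as paired 150 bp reads, per the labels' protocols. HISAT2, Picard and the builds mm10 and mm39 are named, per the submitters' processing notes. The role of each, the counting program, the annotation and the strand setting are not given in the sources used here. Columns were assigned to mice by library name, since 1 title has a shortened mouse number.

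Identifiers were matched to GENCODE M21 symbols (51487 of 78258). Counts were fitted with edgeR 4.0.16 in R 4.3.3 (filterByExpr with a minimum count of 10 and total of 15, TMM, robust quasi-likelihood test) in 1 fit of 20 libraries with a mean per group, and p-values were adjusted by Benjamini-Hochberg over 28564 genes. The scripts were tested on simulated counts. Libraries of a group differed beyond counting error (chi-square per degree of freedom 5.31 to 58.3 over 40 pairs). The labels call each mouse 1 sample, and limits from counts cover counting error only. Depth was 76.2 to 118.5 M counts.

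The sides of a mouse are paired by its number in the labels. Their deviations from the group means correlated in 8 of 10 mice at r above 0.1 (median 0.308, lowest -0.160, highest 0.668). Mouse as a replicate block was an alternative and changed no call of the 10 genes. Others were DESeq2 1.42.0, limma 3.58.1 (voom, mouse as random effect), the compared libraries alone, RLE scaling, an unfiltered table, a floor of 1 on the mean CPM, the mouse number range (H61 to H65 or H95 to H100) as a covariate, and leaving out each mouse. Leaving out the 3 cKO mice high in fibroblast markers was chosen after seeing the data. No sequencing batch is given in the labels.

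All 10 genes are named in every comparison, with up to 3 called genes per pathway list with the largest absolute log2 fold change and at least 5 CPM in the higher group, and the 3 genes that correlate most with each of the 10. Others are said to be named after their values were seen. The 10 genes, the lists and the tests were chosen with earlier results of these data known. Promoter windows came from RefSeq (GRCm38.p6) and were searched in Python 3.11.15. The build of the counts was not settled, so coordinates are given only for these windows.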

Additional observations from a re-analysis of the deposited data

Results flagged for a closer look

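In 3 cases 1 mouse stood apart from the other 4 of its group in the log2 ratio of the ipsilateral to the contralateral side, with a gap to its neighbour of more than 0.71 of the group's range. All 3 were control mice. Nfe2l2 had a ratio of 0.45 in mouse H97, next to 0.34 and down to 0.30 in the others (gap 0.747 of the range). Gclc had -0.46 in mouse H96, next to -0.29 and up to -0.23 (gap 0.761), and Mt1 had 0.87 in the same mouse, next to 0.72 and down to 0.66 (gap 0.713). In each case the outlying mouse had the strongest response in the common direction. Chance alone flags about 1 in 20 groups, and 3 of the 68 groups of 5 that were looked at is close to the 3.4 this gives. No group of 5 libraries was flagged for the CPM of any of the 10 genes, nor was any gene higher in all mice of one genotype and lower in all mice of the other.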

How the results depend on the processing

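The calls of Nfe2l2, Txnrd1, Srxn1, Mt1, Mt2 and Gclc after the lesion held in both genotypes under every alternative run, as did those of Keap1 in control mice. In cKO mice Keap1 was lost with no filter (log2 -0.10) and with the compared libraries alone (-0.0995), which left 8 genes called. Without the 3 mice high in fibroblast markers Keap1 (-0.08), Hmox1 (0.18) and Mt3 (-0.02) were lost, which left 6; only 2 cKO mice remain then, so fewer samples bear on every call. With the replicate block, 7 genes were called in control mice, 9 in cKO mice and 0 in the interaction, and no call changed (Srxn1 1.11 and 1.12). No paired analysis was possible for the genotypes, which are different mice. None of the 10 genes was called between genotypes or in the interaction under any alternative, although the whole table on the contralateral side gave 4 to 3326 called genes when 1 mouse was left out (3326 without H99, 174 without H61, 4 without H95), 1030 with DESeq2, 50 with no filter, 45 with a floor of 1 on the mean CPM and 2 in place of 21 with the compared libraries alone. Leaving out H99 also gave 43 calls in the interaction.

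Changes of sign were seen only for values that were not called. Keap1 between genotypes on the ipsilateral side (-1.72e-04) became 0.00225 with DESeq2, 0.00258 with RLE, 0.00235 with no filter, 4.30e-04 with the CPM floor and 3.15e-04 with the compared libraries alone. The interaction of Gclm (6.41e-04) became -0.00425, -0.00415 and -0.00545 with DESeq2, RLE and the CPM floor. Without the 3 mice, Gclm in cKO mice became -0.0260. On the contralateral side Nfe2l2 became -0.0707, Keap1 0.00631, Gclc 0.00419, Gclm 0.0347, Mt1 -0.0895, Mt2 -0.134 and Mt3 -0.00865. On the ipsilateral side Keap1 became 0.0409 and Hmox1 -0.00398. The interaction became 0.0184 for Nfe2l2, -0.00341 for Gclc, -0.0519 for Gclm, -0.0379 for Srxn1, 0.0140 for Mt2 and 0.00778 for Mt3. The cause was not tested. Leaving out 1 mouse at a time, the lesion effect of Gclm ranged from -0.0135 to 0.0438 (control) and -0.00387 to 0.0329 (cKO), and that of Mt3 in control mice from -0.0582 to 0.00935. On the contralateral side Keap1 ranged from -0.0319 to 0.00502, Gclm from -0.0537 to 4.47e-04 and Srxn1 from -0.0495 to 2.54e-04. On the ipsilateral side Nfe2l2 ranged from -0.0228 to 0.0141, Keap1 from -0.0188 to 0.0176, Srxn1 from -0.0508 to 0.0151 and Mt2 from -0.124 to 0.0589. The interaction ranged from -0.0146 to 0.0234 for Keap1, from -0.0292 to 0.0238 for Gclm and from -0.0214 to 0.0372 for Srxn1.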

Other observations

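Glucocorticoids are known inducers of Mt1 and Mt2, so 10 genes known to be induced by them were listed. After the lesion Per1 and Klf9 were higher and Tsc22d3 was lower in both genotypes, and the other 7 were not called. The 3 calls are 30% of the list in each genotype, near the 29.9% and 31.3% of all tested genes. Without mice H64, H95 and H100, which leaves 2 cKO mice, Klf9 was kept in cKO mice. Per1 and Tsc22d3 were lost at log2 fold changes of 0.72 and -0.25 (edgeR, adjusted p 0.0735 and 0.132). After the group means were subtracted, the summed level of the list had an r of 0.52 with Mt1 and 0.49 with Mt2 over the 20 libraries, and its part in their values was not tested. On the log2 scale Per1 rose by 0.75 and 0.72 (control, then cKO), Klf9 by 0.23 and 0.25, while Tsc22d3 had -0.26 and -0.28 (edgeR). Fkbp5, named after its values were seen, had 75.8 ± 9.86 CPM in control contralateral and 75.6 ± 8.40 CPM in control ipsilateral libraries (SD, n = 5), a log2 fold change of -0.00383 (adjusted p 0.983). The summed level of the 10 genes was 432 to 554 CPM in control contralateral and 488 to 579 CPM in control ipsilateral libraries, and 476 to 583 and 483 to 556 CPM in cKO libraries.

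Slc7a11, the cystine carrier that NRF2 is known to induce, is also named after its values were seen. It had 13.9 ± 1.78 CPM in control contralateral and 13.1 ± 2.05 CPM in control ipsilateral libraries. In cKO contralateral libraries it ranged from 11.9 to 38.5 CPM. It was not called after the lesion in control (log2 -0.08, adjusted p 0.858) or cKO mice (-0.38, adjusted p 0.308).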
